A study of Mus musculus with 40 samples.

Results

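The comparison described here set 5 cerebella of SCA6 84Q/+ mice against 5 cerebella of wild-type (WT) mice, all aged 12 months, which are 10 of the 40 bulk RNA libraries of the series. SCA6 84Q/+ mice, called SCA6 below, carry a hyperexpanded CAG repeat knocked into one endogenous allele of Cacna1a, and WT mice carry none. Every SCA6 animal therefore kept one allele of normal repeat length, and the counts do not read the repeat itself. Each library was made from polyadenylated RNA of a whole flash-frozen cerebellum. The other libraries of the series came from the same genotypes at 3, 6 and 19 months and were used only to ask whether a difference recurred. A gene entered the tests where its CPM, the count scaled by library size, was 1 or more in every library of either genotype, which 13202 of 21967 genes met. A gene was called where edgeR's quasi-likelihood test gave a Benjamini-Hochberg adjusted p of 0.05 or less and the log2 fold change, SCA6 over WT, was 0.3 or more in size.

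Cacna1a encodes the pore-forming subunit of Cav2.1, the P/Q-type calcium channel of Purkinje neurons and of many presynaptic terminals, and its repeat codes for a glutamine tract near the channel's carboxyl end. Spinocerebellar ataxia type 6 is the dominant, late-onset ataxia that follows from expansion of this repeat, and Purkinje neurons are the cells most affected. The study addressed how these mice withstand a misfolded channel early in life, and in particular the unfolded protein response (UPR). In that response the sensors IRE1, PERK and ATF6 in the membrane of the endoplasmic reticulum (ER) raise the transcription of chaperones, foldases and degradation factors when unfolded protein accumulates in the ER lumen.

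Between 44017163 and 71105242 counts were assigned to genes per library, and the scaling factors lay between 0.9768 and 1.024. The libraries also differed in their label IDs and in Y-linked transcripts. Library IDs in the labels open with a number from 1 to 4, whose meaning the sources used here do not state. Number 1 held SCA6 replicates 1 and 2 alone, number 2 held WT replicate 1 with SCA6 replicates 3 and 4, number 3 held WT replicates 2, 3 and 4 with SCA6 replicate 5, and number 4 held WT replicate 5 alone. Y-linked transcripts were present in 4 of 5 WT cerebella, at a mean of 89.9 to 96.8 CPM, and in 1 of 5 SCA6 cerebella, and reached at most 0.351 CPM in the other 5 libraries. The libraries with them were WT replicates 2 to 5 and SCA6 replicate 5, which include every library of ID number 3. The first principal component took 36.5% of the variance. ID number accounted for 89.7% of its spread, Y-linked expression for 57.4% and genotype for 30.5%. These shares overlap, and ID number has more levels than genotype, which by itself raises its share. Genotype, sex-linked expression and ID number were thus unevenly mixed. Markers of the labelled tissue were high in every library (the 22 Purkinje cell markers summed to 6980 to 7740 CPM, forebrain neuron markers to 137 to 172 CPM and brainstem neuron markers to 10.4 to 14.7 CPM). In whole tissue, fewer cells of a type and less RNA per cell cannot be told apart.

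At 12 months SCA6 cerebella differed from WT in 4 called genes, 0.0303% of those tested, and each of the 4 lay on chromosome 8 within 30 Mb of Cacna1a. Comp, Zfp868 and Zfp963 were higher and Mri1 was lower. DESeq2, with the same thresholds, called these 4 and 6 more, which makes 10 genes or 0.0757% of those tested.

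Comp, which encodes the cartilage oligomeric matrix protein of the thrombospondin family (chromosome 8, 70373558 to 70382066, plus strand, GRCm38), measured 5.65, 4.55, 4.62, 3.82 and 4.57 CPM in WT replicates 1 to 5 and 11.5, 10.5, 10.3, 12.7 and 9.53 CPM in SCA6 replicates 1 to 5. The lowest SCA6 value was thus well above the highest WT value. Its mean rose from 4.64 ± 0.651 CPM in WT to 10.9 ± 1.22 CPM in SCA6 (SD, n = 5 each), and the log2 fold change was 1.23 ± 0.109 (SE; edgeR adjusted p = 0.000609). The difference in log2 CPM was 1.01 among the 3 libraries of ID number 2 and 1.14 among the 4 of ID number 3.

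Zfp868, a zinc finger gene (69610857 to 69625548, minus strand), measured 30.2, 30.6, 29, 29.7 and 33.3 CPM in WT replicates 1 to 5 and 43.5, 43.2, 45, 40.5 and 40.5 CPM in SCA6 replicates 1 to 5. The log2 fold change was 0.48 ± 0.0503 (SE; edgeR adjusted p = 0.00216), with 0.50 within ID number 2 and 0.44 within ID number 3. A second zinc finger gene of this stretch, Zfp963 (69741639 to 69749970, minus strand), was present at low levels of 3.22, 3.38, 2.93, 3.30 and 2.86 CPM in WT replicates 1 to 5 and 4.73, 5.08, 4.82, 4.75 and 4.81 CPM in SCA6 replicates 1 to 5. It was higher by 0.63 ± 0.0835 (SE; edgeR adjusted p = 0.0154), and by 0.57 and 0.58 within ID numbers 2 and 3. With 1 library left out at a time its edgeR adjusted p lay between 0.0247 and 0.0883, and it stayed called without WT replicate 2 or WT replicate 4 and was lost without any of the other 8. Transcripts of Zfp868, Zfp963 and their neighbour Zfp709 shared 0 identical windows of 150 bases, the read length, so reads of one did not match another exactly over their whole length.

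Mri1, the methylthioribose-1-phosphate isomerase of methionine salvage (84249906 to 84257326, minus strand), lies at −0.261 Mb relative to Cacna1a and measured 23.4, 22.5, 23.6, 21.2 and 26 CPM in WT replicates 1 to 5 and 16.4, 15.7, 16.9, 14.6 and 15.3 CPM in SCA6 replicates 1 to 5. Again the genotypes did not overlap. Mri1 fell, with a log2 fold change of −0.56 ± 0.0629 (SE; edgeR adjusted p = 0.00281), with −0.57 and −0.55 within ID numbers 2 and 3. With ID number as a block in the fit Comp (adjusted p = 0.0191) and Zfp868 (adjusted p = 0.0469) passed the edgeR threshold, while Mri1 (0.0558) and Zfp963 (0.915) did not. That block compares genotypes only inside ID numbers 2 and 3, since the other numbers hold 1 genotype each. With Y-linked expression as a covariate, 1 gene was called.

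**Figure D1:**
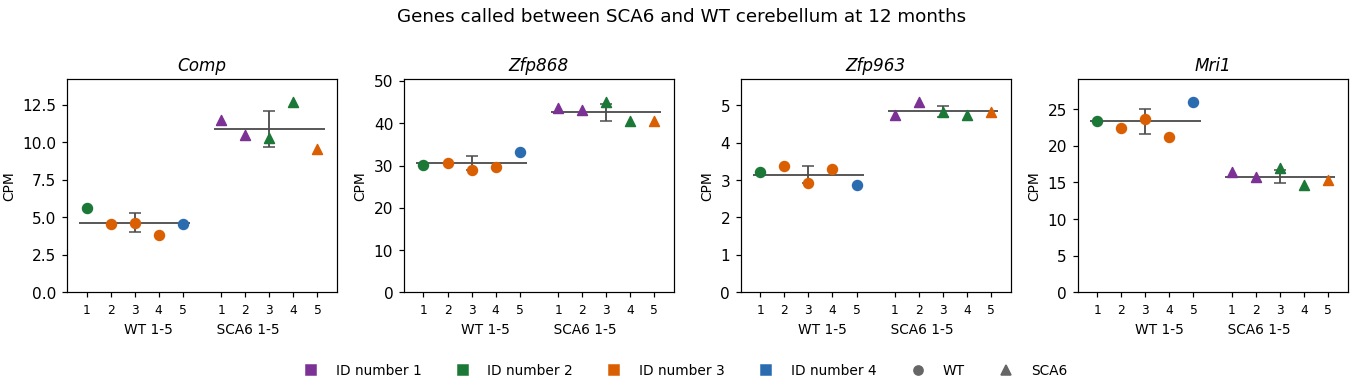
Expression of the 4 called genes in each cerebellum at 12 months, in CPM on linear axes. Circles are WT and triangles SCA6 libraries, coloured by ID number, and the grey line and bar give the mean and SD of 5 libraries. In each panel the 2 genotypes do not overlap, and Comp has the widest gap relative to its level (3.82 to 5.65 CPM in WT, 9.53 to 12.7 CPM in SCA6).

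The same transcripts differed at the ages that share no library with 12 months. In a fit of 3, 6 and 19 months together, which had a term for age, 9 of 13361 genes (0.0674%) were called by edgeR, and 8 of the 9 lay within 30 Mb of Cacna1a. Each of the 9 had the same direction at 12 months, 7 of them at an unadjusted p under 0.05 and 3 among the called genes. The estimates for Comp over those ages (1.19, adjusted p = 4.59e-07) and for Mri1 (−0.54, adjusted p = 3.08e-05) were close to those at 12 months. Comp averaged 3.18 ± 0.415, 4.83 ± 0.591 and 5.49 ± 0.554 CPM in WT (SD, n = 5 each) and 7.25 ± 3.54, 11.5 ± 2.31 and 12 ± 1.41 CPM in SCA6 cerebella (SD, n = 5 each) at 3, 6 and 19 months. The wide spread in SCA6 at 3 months came from the libraries labelled replicates 2 and 3 of that group, with 3.61 and 3.67 CPM of Comp against 7.79 to 11.4 CPM in the other 3. The same 2 libraries also measured 27.3 and 24.3 CPM of Mri1 against 17 to 17.9 CPM in the other 3, that is, within or near the WT range. Without them, 15 genes were called over the other ages. Zfp868 (0.27, adjusted p = 0.00257) and Zfp963 (0.46, adjusted p = 0.000350) were higher at the other ages too, Zfp868 by less than the 0.3 that a call needs. These estimates include the same 2 libraries of 3 months. They measured 32 and 27.6 CPM of Zfp868 against 39.9 to 40.7 CPM in the other 3. For Zfp963 they measured 3.2 and 2.84 CPM against 4.08 to 4.68 CPM.

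A looser threshold gave the same map, with the 4 called genes included. Under an unadjusted p of 0.01 there were 119 genes (0.901% of those tested), 53 higher and 66 lower in SCA6. Of those with a position, 27.9% were on chromosome 8, which carries 5.09% of the tested genes. Within 30 Mb of Cacna1a lay 30 of the 119, the 4 called genes among them, of 386 genes tested there. Of the 30, 22 were lower and 8 higher. Counted in steps of 10 Mb between gene midpoints, the share under this p was 15.9% of 107 genes from 20 to 10 Mb before Cacna1a, 14.3% of 49 genes over the next 10 Mb, 4.55% of 66 genes over the first 10 Mb beyond it, itself included, and 0.935% of 107 genes at 20 to 30 Mb beyond it. In steps farther than 30 Mb away 1 gene passed. Of the 30 genes, 29 had the same sign at 3, 6 and 19 months, and 13 had an adjusted p of 0.05 or less there. The exception was Adamts18, at 0.35 at 12 months and −0.0014 at the other ages. The remaining 89 genes behaved otherwise at those ages, where 31 of the 88 tested had the same sign and 0 passed an adjusted p of 0.05.

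**Figure D2:**
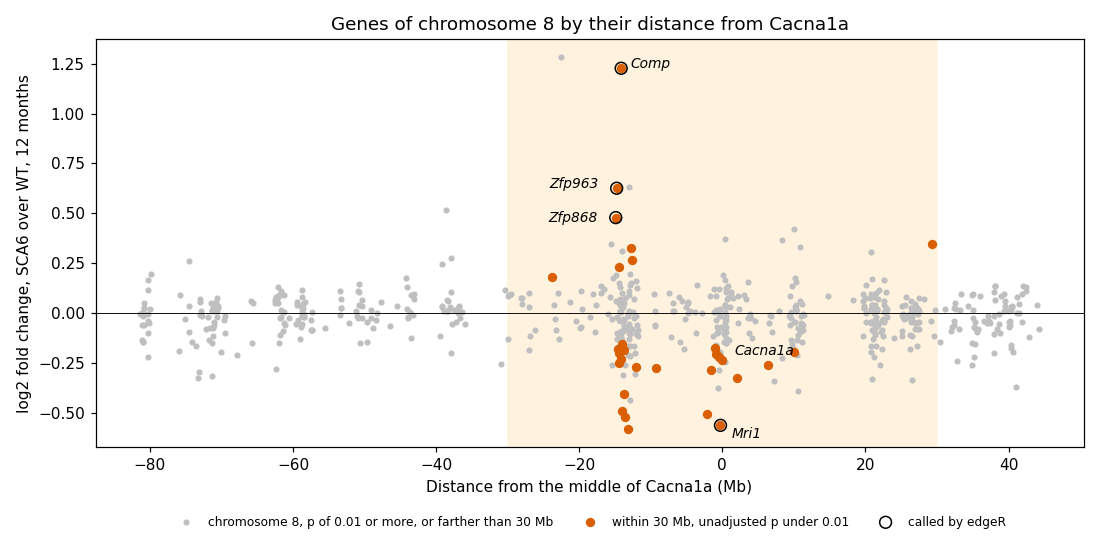
Log2 fold change (SCA6 over WT, 12 months) of the tested genes of chromosome 8 against their distance from Cacna1a in Mb. Genes with an unadjusted p under 0.01 cluster before and close to Cacna1a at distance 0, with 30 of 31 such genes within 30 Mb, and Comp (1.23) stands highest of those. Rings mark the 4 called genes.

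Among the neighbours, Il15, a cytokine that sustains NK and memory T cells, measured 4.20, 3.35, 4.33, 3.74 and 5.54 CPM in WT replicates 1 to 5 and 2.61, 3.62, 2.96, 2.87 and 2.84 CPM in SCA6 replicates 1 to 5, and the ranges overlapped. Its difference at 12 months of −0.50 ± 0.139 (SE; unadjusted p = 0.00297 by edgeR) did not pass adjustment, whereas at the other ages it was −0.63 (adjusted p = 2.56e-05). Abcc12, an ABC transporter gene 2.02 Mb beyond Cacna1a, measured 19.9, 21.7, 19.1, 17.6 and 22.5 CPM in WT and 16.6, 15.8, 15.9, 16.3 and 15.7 CPM in SCA6 cerebella, without overlap. It was lower by DESeq2 (−0.33, adjusted p = 0.0163), and at the other ages it was −0.45 by edgeR (adjusted p = 2.81e-05). Ocel1 (DESeq2 −0.58, adjusted p = 0.0214) and Arrdc2, an arrestin-domain gene (DESeq2 −0.41, adjusted p = 0.0312), were the other chromosome 8 genes that DESeq2 added. Ocel1 was higher in ID number 3 by 0.40 (edgeR adjusted p = 0.0128), and its genotype estimate was −0.45 with ID number as a block and −0.32 with the Y-linked level as covariate. Scoc, which encodes a Golgi coiled-coil protein and lies at −1.07 Mb relative to Cacna1a, was at −0.18 at 12 months and −0.29 at the other ages (adjusted p = 0.000101). Rfxank, a subunit of the RFX complex that drives MHC class II genes, was at −0.20 and −0.20 (adjusted p at the other ages = 0.000217). Among the genes on the higher side, Fcho1, an endocytic adaptor, was at 0.33 and 0.27 (adjusted p = 0.00834), and Hapln4, a matrix link protein of perineuronal nets, was at 0.23 (0.14 with ID number as a block) and 0.20 (adjusted p = 0.0189).

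Cacna1a itself (84388440 to 84640246, plus strand) measured 371, 430.0, 419, 350.4 and 362 CPM in WT replicates 1 to 5 and 319, 343, 293, 357 and 330.1 CPM in SCA6 replicates 1 to 5. The WT value of replicate 4 lay inside the SCA6 range and the other 4 above it. Its log2 fold change was −0.23 ± 0.0685 (SE; unadjusted p = 0.00451, edgeR adjusted p = 0.594), which was not called, and over the other ages it was −0.20 (adjusted p = 0.0422). With ID number as a block the estimate at 12 months was −0.24 (unadjusted p = 0.0286).

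Away from chromosome 8, DESeq2 added Sgk1, Whrn and an unnamed transcript with no position, RP24-160I20.1 (DESeq2 −0.45, adjusted p = 0.00673). Sgk1, the kinase induced by serum and glucocorticoids (chromosome 10), measured 109.6, 139, 121, 124 and 102 CPM in WT replicates 1 to 5 and 80.2, 96.3, 89.2, 99.4 and 99.7 CPM in SCA6 replicates 1 to 5, with no overlap. Its log2 fold change was −0.36 by DESeq2 (adjusted p = 0.0323), and its edgeR estimate was −0.36 ± 0.0823 (SE, adjusted p = 0.594). At the other ages it was 0.056. Whrn, which encodes the scaffold protein whirlin (chromosome 4), was at −0.37 by DESeq2 (adjusted p = 0.0248), and 0.0046 at the other ages. It measured 90.2, 94.3, 112, 93.7 and 91.4 CPM in WT replicates 1 to 5 and 70.9, 69.3, 66.3, 76.5 and 90.2 CPM in SCA6 replicates 1 to 5, and SCA6 replicate 5, of ID number 3, lay just inside the WT range. ID number 3 exceeded the rest in Whrn by 0.22 (edgeR adjusted p = 0.0480), and the genotype estimate was −0.24 with ID number as a block and −0.19 with the Y-linked level as covariate.

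Genotypes did not overlap in 92 genes, 0.697% of those tested, of which 51 were higher and 41 lower in SCA6. With groups this small some genes separate without any genotype effect, and 0.697% was not shown to exceed that share. Lack of overlap alone is therefore a description and not a result. The share was 4.4% within 30 Mb of Cacna1a. Among those elsewhere, Prnp, the prion protein gene, measured 6.08, 5.20, 6.45, 5.86 and 6.77 CPM in WT replicates 1 to 5 and 9.71, 7.35, 6.86, 8.78 and 8.38 CPM in SCA6 replicates 1 to 5, with a log2 fold change of 0.44 (unadjusted p = 0.00124) that was −0.045 at the other ages. Casp1, the inflammasome caspase, measured 4.74, 4.15, 4.37, 3.71 and 4.55 CPM in WT and 5.17, 9.43, 6.42, 6.00 and 4.82 CPM in SCA6 cerebella, with its highest value in SCA6 replicate 2. Its estimate was 0.56, with 0.38 without that library and 0.31 with ID number as a block, which leaves that library out as well. Tet1, a 5-methylcytosine dioxygenase, reached at most 42.5 CPM in WT and was never below 42.5 CPM in SCA6, at the limit of overlap (0.22, unadjusted p = 0.000602). On the lower side, Camkv, a pseudokinase of the calmodulin kinase family, measured 4.08, 3.88, 6.58, 3.61 and 3.79 CPM in WT and 3.02, 2.56, 2.96, 3.06 and 3.59 CPM in SCA6 cerebella. At the other ages Casp1 (0.036), Tet1 (−0.054) and Camkv (−0.21) had edgeR adjusted p-values of 0.994, 0.992 and 0.992.

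Ion channels were examined because they set the spontaneous firing of Purkinje neurons, the output cells of the cerebellar cortex. None of the 31 channel genes of ataxia and Purkinje firing was called by edgeR or DESeq2. Their median log2 fold change was −0.067, against −0.0028 over all tested genes, and 6 of 31 were above 0 (6439 of all 13202). At an unadjusted p under 0.05, a threshold that 7.71% of all genes met, 2 of the 31 were lower, Cacna1a and Cacna1g. Cacna1g, the T-type channel of low-threshold calcium spikes, measured 218, 241, 228, 215 and 198 CPM in WT replicates 1 to 5 and 195, 183, 185, 219.8 and 211 CPM in SCA6 replicates 1 to 5 and overlapped (−0.15 ± 0.0640, SE; unadjusted p = 0.0391), with −0.10 when the Y-linked level was a covariate. Estimates for 2 calcium-activated potassium channels that the study examined were smaller in size. They were −0.086 ± 0.0528 (SE) for Kcnma1, the BK channel, and 0.011 ± 0.0711 for Kcnn2, the SK2 channel. Itpr1, the IP3 receptor through which Purkinje ER calcium is released, was at −0.11 ± 0.0889 (SE; unadjusted p = 0.255).

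Store-operated calcium entry, in which STIM proteins sense the emptying of the ER and open ORAI channels, showed no called gene among the 15 members tested. None of them reached an unadjusted p of 0.05 by edgeR either, and the median was −0.039. Orai2 measured 70.7, 64.7, 61.2, 66 and 76.1 CPM in WT and 71.9, 70.8, 73.8, 73.3 and 68.5 CPM in SCA6 cerebella, a log2 fold change of 0.083 ± 0.0556 (SE; unadjusted p = 0.162). Stim1 was at −0.018 ± 0.0497 (SE; unadjusted p = 0.718).

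Of 28 tested genes of the Cav2.1 complex and its presynaptic partners, 0 were called by either tool and the median was −0.040. Above 0 were 9 (32.1%, against 48.8% of all tested genes). At an unadjusted p under 0.05 by edgeR, met by 7.71% of all genes, 5 were lower and 0 higher. These were Cacna1a, the presynaptic adhesion gene Nrxn2 (−0.17), Rimbp2, which links Cav2 channels to RIM (−0.19), the auxiliary subunit Cacna2d3 (−0.10), and Unc13a, the vesicle-priming factor Munc13-1 (−0.44). Unc13a measured 169, 259, 268, 255 and 149.9 CPM in WT replicates 1 to 5 and 141, 134, 129, 169.8 and 238 CPM in SCA6 replicates 1 to 5. Its high values were those of WT replicates 2, 3 and 4 and SCA6 replicate 5, which are the 4 libraries of ID number 3 (log2 difference of ID number 3 from the rest 0.72, adjusted p = 0.000205). The genotype estimate of Unc13a was −0.15 with ID number as a block and −0.022 with the Y-linked level as covariate. Nrxn2 was also highest in those 4 libraries (259 to 271 CPM against 211 to 250.4 CPM in the other 6), and its estimate was −0.12 with the block and −0.058 with the covariate.

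The ER chaperones and foldases that the study named had lower estimates in SCA6 at 12 months, and their high values were those of the libraries of ID number 3. Of the 10, 1 was above 0, none was called, none reached an unadjusted p of 0.05, and the median was −0.25. With ID number as a block the median became 0.025, with Y-linked expression as a covariate 0.14, and at the other ages it was 0.14. ID number 3 exceeded the other libraries by a median of 0.60 over the 10, and all of its libraries carried Y-linked transcripts. The study drew these 10 from the libraries of this series, so they are not independent evidence of a direction.

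Hspa5, which encodes BiP, the ER's main Hsp70 chaperone and the brake on all UPR sensors, measured 239, 422, 506, 332 and 217 CPM in WT replicates 1 to 5 and 228, 215, 215, 257 and 439 CPM in SCA6 replicates 1 to 5. The 3 WT values between 332 and 506 CPM and the single SCA6 value of 439 CPM were the libraries of ID number 3, and the other 6 lay between 215 and 257 CPM. The genotype estimate was −0.34 ± 0.246 (SE; unadjusted p = 0.187), and ID number 3 exceeded the rest by 0.91 (edgeR adjusted p = 0.000340). Hsp90b1, the ER paralogue of Hsp90 also called GRP94, measured 436, 709, 759, 706 and 445 CPM in WT replicates 1 to 5 and 462, 441, 450.2, 474 and 732 CPM in SCA6 replicates 1 to 5. Here too the 4 libraries of ID number 3 stood above the other 6, by 0.70 (adjusted p = 1.01e-05), against a genotype estimate of −0.26 ± 0.180 (SE). Pdia6, a protein disulfide isomerase, measured 88, 137, 147, 118 and 82 CPM in WT and 81, 81.6, 81.3, 91.8 and 137 CPM in SCA6 cerebella. Calr, the calcium-binding lectin chaperone calreticulin, measured 245, 359, 394, 331 and 224 CPM in WT and 235, 215, 216, 258 and 385 CPM in SCA6 cerebella. Pdia3, Pdia4, Hyou1, Dnajb11 and Dnajc3 had the same order, with ID number 3 higher by 0.33 (Dnajc3) to 0.63 (Pdia4). The exception was Dnajb9, a BiP cofactor and IRE1 target, at 42.3 to 50.3 CPM outside ID number 3 and 42.9 to 44.7 CPM within it.

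**Figure D3:**
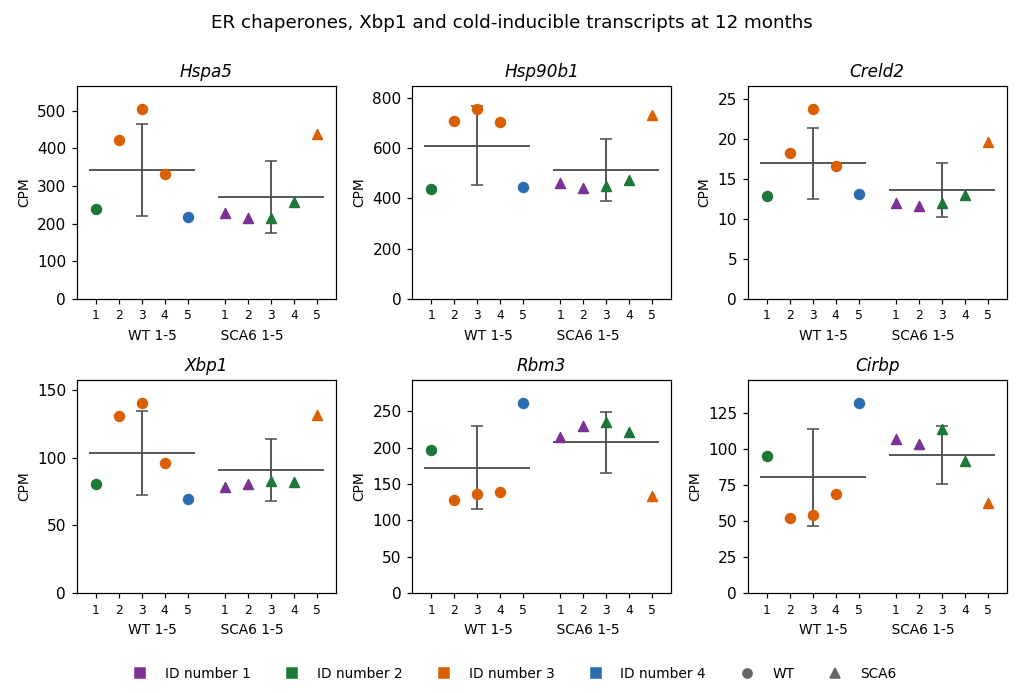
ER chaperone transcripts, with Rbm3 and Cirbp, in each cerebellum at 12 months, in CPM. Circles are WT and triangles SCA6, the colour gives the ID number, and line and bar give the mean and SD of 5 libraries. The 4 orange points of ID number 3 (WT replicates 2 to 4, SCA6 replicate 5) lie above all others for Hspa5 and Hsp90b1 and below all others for Rbm3.

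The promoters of these chaperones are shown because they carry the ER stress response element (ERSE), the site through which ATF6 and XBP1 act with NF-Y. RefSeq sequences (GRCm38.p6) ran from 250 bases before to 50 bases after each gene's start, are given 5′ to 3′ on the gene's own strand, and were searched on both strands for CCAAT, 9 bases of any kind, and CCACG. The element was found in 5 of the 9 promoters matched for the study's chaperones (55.6%), those of Calr, Dnajc3, Hsp90b1, Hspa5 and Pdia6, and in 0.137% of all 27025 promoters. A match is a description of the letters and not a measurement of binding. Capitals mark the element in the promoters of Hspa5 (chr2:34771840-34772139, plus strand), Hsp90b1 (chr10:86705395-86705694, minus strand) and Creld2 (chr15:88819396-88819695, plus strand).
Hspa5: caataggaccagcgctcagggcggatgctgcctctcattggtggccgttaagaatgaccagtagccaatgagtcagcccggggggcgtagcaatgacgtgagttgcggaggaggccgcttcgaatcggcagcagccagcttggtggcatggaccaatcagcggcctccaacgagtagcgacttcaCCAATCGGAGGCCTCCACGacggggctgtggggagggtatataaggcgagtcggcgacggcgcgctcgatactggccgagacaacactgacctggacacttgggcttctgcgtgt
Hsp90b1: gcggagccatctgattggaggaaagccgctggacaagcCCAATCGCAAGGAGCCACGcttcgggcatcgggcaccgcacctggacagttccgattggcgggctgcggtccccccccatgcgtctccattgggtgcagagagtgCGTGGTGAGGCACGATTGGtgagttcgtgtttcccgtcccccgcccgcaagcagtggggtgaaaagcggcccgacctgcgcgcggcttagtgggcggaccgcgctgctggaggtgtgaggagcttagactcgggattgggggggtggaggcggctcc
Creld2: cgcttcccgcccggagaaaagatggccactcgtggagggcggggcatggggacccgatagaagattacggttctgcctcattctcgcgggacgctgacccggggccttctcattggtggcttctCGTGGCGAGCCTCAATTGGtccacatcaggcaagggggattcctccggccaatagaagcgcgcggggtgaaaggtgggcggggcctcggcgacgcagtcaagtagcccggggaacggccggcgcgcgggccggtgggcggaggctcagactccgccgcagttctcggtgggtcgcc

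Creld2, a foldase-like ER protein secreted under stress, measured 12.9, 18.2, 23.8, 16.6 and 13 CPM in WT replicates 1 to 5 and 12, 11.6, 12, 12.9 and 19.6 CPM in SCA6 replicates 1 to 5. Its genotype estimate was −0.31 ± 0.181 (SE; unadjusted p = 0.109), and ID number, tested over its 4 levels, had an adjusted p of 0.0265. The study, which dropped outlier libraries, reported Creld2 as significantly reduced at 12 months. With all 10 libraries it was not called here (DESeq2 −0.31, adjusted p = 0.636), and the reason for the difference was not tested. Manf, a neurotrophic factor released from a stressed ER, measured 25.6, 41.4, 47, 42.7 and 25.1 CPM in WT and 24.6, 27.6, 26.7, 25.5 and 43.3 CPM in SCA6 cerebella and repeated the order seen for Hspa5. Manf was chosen after its values were seen. Xbp1, the transcription factor spliced by IRE1, measured 80.9, 131, 141, 96.3 and 69.2 CPM in WT replicates 1 to 5 and 78.5, 80.3, 82.6, 82.2 and 131 CPM in SCA6 replicates 1 to 5, with −0.19 ± 0.196 (SE) between genotypes. Counts per gene do not distinguish its spliced form.

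Around the chaperones, the other branches of the UPR showed no called gene by either tool. Among 13 sensors and transcription factors, 5 were above 0 and the median was −0.056. Eif2ak3, which encodes PERK, measured 49.7, 49.7, 47, 47.5 and 48.9 CPM in WT replicates 1 to 5 and 50.9, 51.8, 50.7, 52.1 and 51.1 CPM in SCA6 replicates 1 to 5. Its genotypes did not overlap, although the difference was small (0.080 ± 0.0358, SE; unadjusted p = 0.0432) and at the other ages it was −0.037. Of 19 tested genes of ER-associated degradation, 1 was lower at an unadjusted p under 0.05, met by 7.71% of all genes, and the median was −0.010. This gene was Herpud1 (−0.18, unadjusted p = 0.0326 by edgeR, and −0.12 with ID number as a block or −0.10 with the Y-linked level as covariate). The 27 genes of translocation, glycosylation and ER exit had a median of 0.010. Of the 27 tested genes of the ATF4 response, which PERK controls, 7 were above 0 with a median of −0.040.

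Cytosolic chaperones and HSF1 targets gave the same picture as the ER set. Of 35 tested, 5 were above 0 (median −0.067), 0 were called, and 34 were higher in ID number 3 than in the rest (median 0.16), against 51.3% of all tested genes. ID number was called over its 4 levels in 11 of the 35, against 3.3% of all tested genes. Hsph1, the Hsp110 nucleotide exchange factor, measured 124, 190.3, 194, 179.6 and 97.7 CPM in WT and 108, 104, 103, 118 and 176 CPM in SCA6 cerebella. Hsp90aa1 and Hsp90ab1, the inducible and constitutive cytosolic Hsp90 genes, were at −0.15 ± 0.112 and −0.20 ± 0.102 (SE; unadjusted p = 0.197 and 0.0683) between genotypes. Both were higher in ID number 3, by 0.40 and 0.35 (adjusted p = 0.00190 and 0.00345).

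ID number, with genotype in the fit, differed in 436 genes at an edgeR adjusted p of 0.05 or less, 3.3% of those tested, and none of these was among the 4 genes called for genotype. In 383 of the 436 the 4 libraries of ID number 3 lay on one side of the other 6, above them in 240 and below in 143. Over all tested genes the share was 14.2%. The 436 were picked for a difference by ID number in these same libraries, so a larger share among them is built in. The 436 held 9 of the study's 10 ER chaperones. Cold-inducible RNA-binding protein genes stood on the opposite side from the chaperones. Rbm3 measured 197, 128, 136, 139 and 262 CPM in WT replicates 1 to 5 and 215, 230.3, 236, 221 and 134 CPM in SCA6 replicates 1 to 5, and Cirbp measured 94.9, 51.6, 54, 68.4 and 132 CPM in WT replicates 1 to 5 and 106, 103, 114, 91.8 and 62.6 CPM in SCA6 replicates 1 to 5. Both were lowest in the libraries of ID number 3, which differed from the rest by −0.76 and −0.87 on the log2 scale. Neuronal genes of this axis were Eomes, a marker of unipolar brush cells, Nrn1, an activity-regulated neuritin, and Slc2a13, a myo-inositol transporter, higher in ID number 3 by 0.96, 0.62 and 0.97. Cdkn1a, the cell cycle inhibitor p21, was higher by 1.03, and the sterol-regulated gene Insig1 was lower, with a log2 difference of −0.52. Genes of this paragraph other than the study's list were chosen after their values were seen. ID number 3 held 3 WT cerebella and 1 SCA6 cerebellum, and all 4 carried Y-linked transcripts. Of the other 6 libraries only WT replicate 5 carried them, and its Rbm3 (262 CPM) and Cirbp (132 CPM) were the highest of 10. Its score for the study's ER chaperones (mean centred log2 CPM) was −0.251. Scores outside ID number 3 ran from −0.262 to −0.134, and within it from 0.177 to 0.458. With 1 such library, differences of ID number 3 from the rest cannot be well told apart from differences of sex.

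Glucocorticoid targets were another list with a shift to one side. All 14 were below 0 in SCA6, with a median of −0.29 beside −0.0028 over all genes. The scores of single libraries overlapped, at −0.297 to 0.353 in WT and −0.271 to 0.0789 in SCA6, and WT replicate 5 was the lowest. None was called by edgeR (0.0303% of all genes) and 2 were by DESeq2 (0.0757% of all genes), Sgk1 and Arrdc2, the latter also a neighbour of Cacna1a. At an unadjusted p under 0.05 by edgeR, met by 7.71% of all genes, 4 were lower, and the further ones were Map3k6 (−0.59) and Pdk4, the kinase that restrains pyruvate dehydrogenase (−0.18, and −0.11 with the Y-linked level as covariate). The median was −0.20 with ID number as a block, and ID number 3 exceeded the rest in 13 of 14 (median 0.26). The part of ID number in this shift was not tested further. At the other ages the median was −0.068.

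Interferon-stimulated genes had higher estimates in SCA6, and 1 library, SCA6 replicate 2, carried them. All 42 tested members had a log2 fold change above 0 (median 0.63), against 48.8% of all tested genes, and 0 were called by edgeR. At an unadjusted p under 0.05 by edgeR, met by 7.71% of all genes, there were 10. DESeq2 gave no adjusted p for 17 of the 42, Oasl2, Ifit1, Isg15 and Irf7 among them, and called 0 of the other 25. Without SCA6 replicate 2 the median was 0.00158 and 21 of 42 were above 0. With ID number as a block the median was −0.10. That is not a separate check, because ID number 1 holds no WT library and the block thus leaves out SCA6 replicate 2 as well. Oasl2, an oligoadenylate synthetase-like protein, measured 15.2, 9.80, 9.29, 17.5 and 11.2 CPM in WT replicates 1 to 5 and 9.09, 146, 11, 15.2 and 10.5 CPM in SCA6 replicates 1 to 5. The value in SCA6 replicate 2 was 8.34-fold that of the next highest library. Ifit1, which binds viral RNA caps, measured 17, 11.6, 8.97, 17 and 14.1 CPM in WT replicates 1 to 5 and 11.2, 108, 11.1, 18.3 and 10.9 CPM in SCA6 replicates 1 to 5. Isg15, a ubiquitin-like modifier, was at 21 CPM in that library against 2.49 to 5.02 CPM in the other 9, and Irf7, the factor that amplifies type I interferon, at 43.4 against 3.90 to 7.35 CPM.

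MHC class I genes took part in that library. B2m, the light chain of MHC class I, measured 144, 124, 111, 126 and 131 CPM in WT replicates 1 to 5 and 176, 424, 149, 124 and 139.7 CPM in SCA6 replicates 1 to 5. A subset was also high in SCA6 replicate 1, the other library of ID number 1. H2-Q4, a class Ib heavy chain, measured 7.82, 5.29, 5.18, 6.85 and 6.91 CPM in WT replicates 1 to 5 and 15.6, 28.4, 7.63, 5.93 and 7.24 CPM in SCA6 replicates 1 to 5. Gbp3, a guanylate-binding protein, measured 11, 8.35, 7.74, 12.8 and 9.37 CPM in WT and 18.5, 41.5, 10.5, 11.8 and 9.55 CPM in SCA6 cerebella, and Tgtp2, an immunity-related GTPase, 3.49, 2.05, 2.33, 3.39 and 2.49 CPM in WT and 11.2, 8.95, 2.83, 3.46 and 3.16 CPM in SCA6 cerebella. In Gbp3, H2-Q4 and Tgtp2 the SCA6 replicates 1 and 2 were the highest of 10 libraries, and the other 3 SCA6 values lay inside the WT range. The H2, Gbp and Tgtp families hold near-identical copies, so reads may have been split between members. Of 47 genes at 2-fold or more above every other library in SCA6 replicate 2, 29 were on the interferon list.

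Markers of microglia summed to 455 CPM in that library and 297 to 359 CPM in the other 9, and their part in the rise was not tested. T cell and NK cell markers were near the limit of counting, with 14 of 15 under 1 CPM and a sum of 5.58 CPM against 2.97 to 5.29 CPM.

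The promoters of 2 leading genes are shown with the interferon-stimulated response element (ISRE) in capitals, written as GAAA, 2 bases of any kind and GAAA and searched on both strands. It was found in 17 of 33 matched promoters of the list (51.5%) and in 3.99% of all promoters. Ifit1 (chr19:34640639-34640938, plus strand) and Isg15 (chr4:156200769-156201068, minus strand), whose matches overlap in one run, read as follows.
Ifit1: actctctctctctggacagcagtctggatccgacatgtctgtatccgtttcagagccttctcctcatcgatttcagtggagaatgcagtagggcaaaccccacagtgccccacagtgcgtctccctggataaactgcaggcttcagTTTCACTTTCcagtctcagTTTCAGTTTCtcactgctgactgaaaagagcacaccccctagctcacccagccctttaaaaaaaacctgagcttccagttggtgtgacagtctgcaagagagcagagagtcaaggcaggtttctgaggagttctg
Isg15: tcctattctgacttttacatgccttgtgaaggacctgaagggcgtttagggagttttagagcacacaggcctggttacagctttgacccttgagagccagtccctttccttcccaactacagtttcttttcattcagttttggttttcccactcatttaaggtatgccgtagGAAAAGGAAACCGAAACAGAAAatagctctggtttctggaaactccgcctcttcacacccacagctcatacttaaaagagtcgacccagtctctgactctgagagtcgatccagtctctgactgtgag

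**Figure D4:**
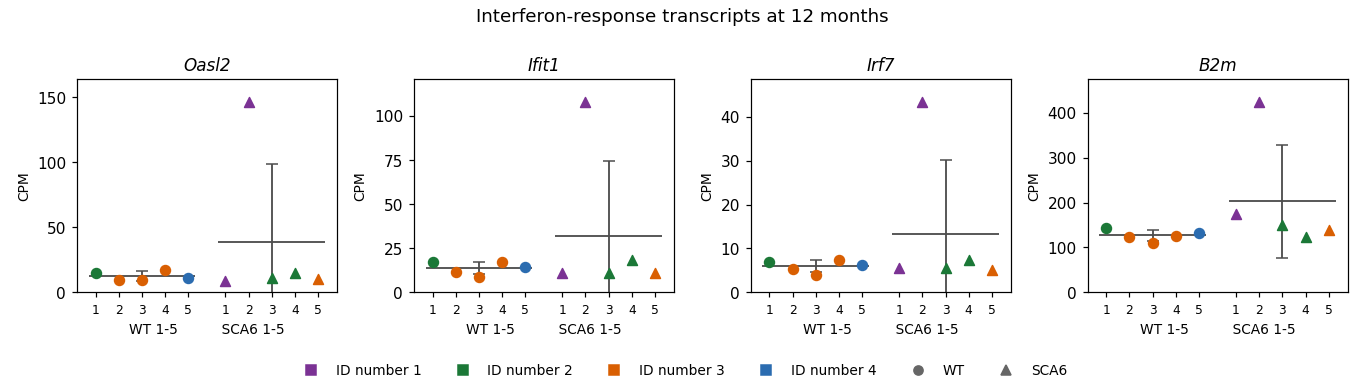
Interferon-stimulated transcripts in each cerebellum at 12 months, in CPM on linear axes starting at 0. Circles are WT and triangles SCA6, coloured by ID number, with the mean and SD of 5 libraries as line and bar. SCA6 replicate 2 stands alone for Oasl2 (146 CPM, others 9.09 to 17.5) and Ifit1 (108 CPM, others 8.97 to 18.3).

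No cell type marker was called by edgeR or DESeq2, and apart from interneuron markers each list held at most 2 members with an unadjusted p under 0.05 by edgeR. The 22 Purkinje cell markers divided evenly, with 11 above 0 and a median of 0.0025. Among them, Pcp2, the Purkinje cell protein that modulates G proteins, measured 277, 277, 253, 269 and 257 CPM in WT and 276, 272, 276, 235 and 269 CPM in SCA6 cerebella, and Calb1, the calcium buffer calbindin, was at 0.11 ± 0.0584 (SE; unadjusted p = 0.0706). Granule cell markers had a median of 0.025 with 12 of 17 above 0, and Gabra6, the granule cell GABA-A subunit, was at 0.088 ± 0.0577 (SE). Markers of cerebellar interneurons leaned lower, with 2 of 15 above 0 (13.3%, against 48.8% of all tested genes) and a median of −0.11. At an unadjusted p under 0.05 by edgeR, met by 7.71% of all genes, there were 4 members. These were Sorcs3, a sorting receptor (−0.29, unadjusted p = 0.00119), Prkcd (−0.17), and the paired transcription factors Tfap2b (−0.22) and Tfap2a (−0.21). With ID number as a block the median of the list was −0.12, with the Y-linked level as covariate −0.12, and within ID numbers 2 and 3 −0.20 and −0.024. Tfap2b was at 61.8 to 73.9 CPM within ID number 3 and 51 to 61.5 CPM in the other 6, and its estimate was −0.15 with the block and −0.11 with the covariate. Sorcs3 measured 34, 31.1, 35.1, 30.1 and 34.8 CPM in WT replicates 1 to 5 and 26.6, 24.1, 25.8, 31 and 27.9 CPM in SCA6 replicates 1 to 5. Its highest SCA6 value lay just inside the WT range, and at the other ages its estimate was 0.021. The summed level of the interneuron list spanned 2560 to 2830 CPM among WT and 2500 to 2770 CPM among SCA6 libraries.

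Medians of the glial lists were −0.058 for astrocytes and Bergmann glia, 0.015 for oligodendrocytes, −0.093 for their precursors and 0.020 for microglia, and −0.013 for reactive glia and complement. Endothelial and mural markers had a median of −0.025. Transcripts from the surfaces and blood of the dissected tissue had medians below 0, of −0.20 for 16 choroid plexus markers (1 above 0), −0.14 for 13 tested meningeal fibroblast markers and −0.30 for 5 red blood cell transcripts (0 above 0). Red blood cell transcripts were higher in ID number 3 by a median of 0.50, and their median between genotypes was −0.15 with ID number as a block. Choroid plexus markers summed to 4670 to 7370 CPM among WT and 4090 to 6290 CPM among SCA6 libraries, and at the other ages their median was 0.27. Enzymes of myelin and cholesterol synthesis (0.065), immediate early genes (0.10) and circadian clock genes (0.0071) completed the set, with 0 called by edgeR or DESeq2 and 2, 1 and 1 members higher at an unadjusted p under 0.05. By edgeR 7.71% of all genes met that last threshold. The single tested brainstem neuron marker was Th, at −0.12, the single tested T cell or NK cell marker was Itgal, at 0.047, and 5 tested forebrain neuron markers had a median of −0.047. The 4 X-linked partners of Y-linked genes were above 0 (median 0.31), while with the Y-linked level as covariate Kdm6a, a histone demethylase gene at 0.42 without it, was at −0.048.

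**Figure D5:**
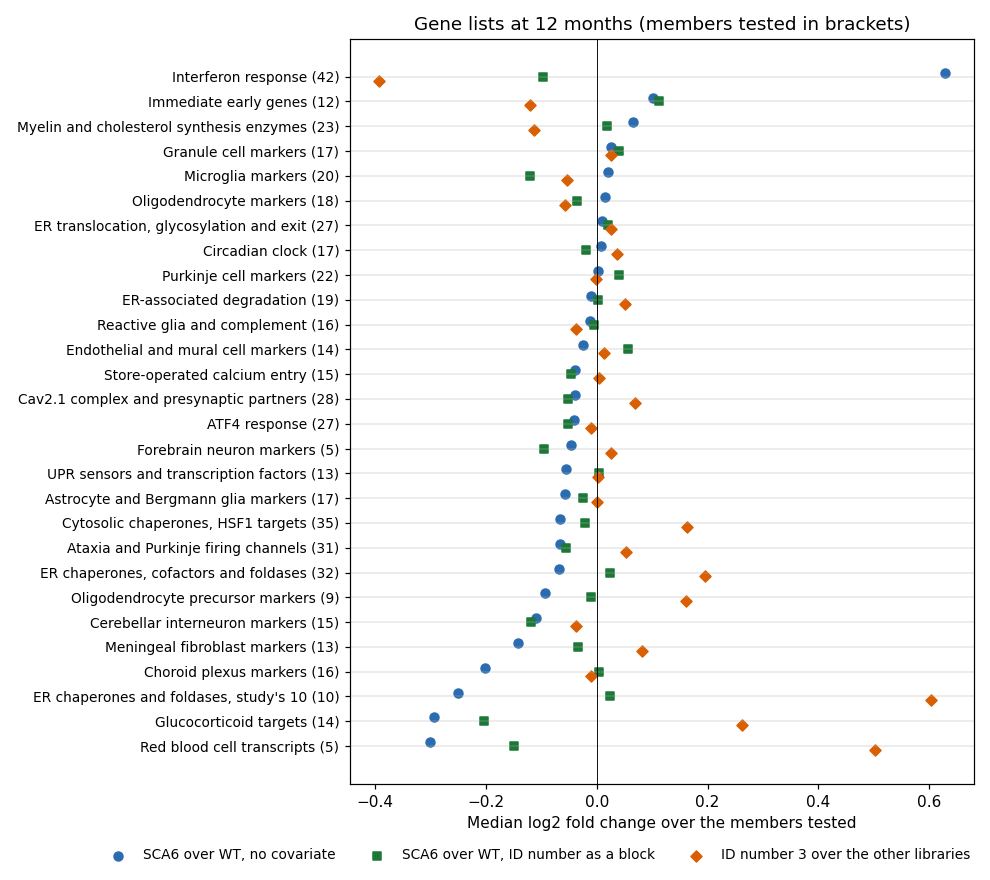
Median log2 fold change over the tested members of each gene list with 5 or more members tested, 1 row a list. Circles are SCA6 over WT, squares the same with ID number as a block, and diamonds ID number 3 over the other libraries. The block leaves ID numbers 1 and 4 out of the genotype estimate, and SCA6 replicate 2 with them. The interferon circle lies far right (0.63) and its square left of 0 (−0.10), and the circle of the study's ER chaperones lies left (−0.25) with its diamond far right (0.60).

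Whether the genotype effect at 12 months departed from that at the other ages was tested in a fit of 8 groups. No gene of 13381 (0%) had an adjusted p of 0.05 or less for the effect at 12 months minus its mean at 3, 6 and 19 months by edgeR, 1591 had an unadjusted p under 0.05, and DESeq2 called 4 (Cabp2, Iigp1, Tgtp2 and Tnr). The smallest edgeR adjusted p was that of Tnr, tenascin-R of perineuronal nets (0.134), whose effect at 12 months differed by −0.35 on the log2 scale. Tnr measured 135, 137, 150.0, 129.8 and 118 CPM in WT replicates 1 to 5 and 108, 109.9, 96.4, 116 and 122 CPM in SCA6 replicates 1 to 5. Iigp1 and Tgtp2 are interferon-inducible GTPases with their highest values in SCA6 replicates 1 and 2, and Cabp2, a calcium-binding protein, was at 0.51 at 12 months (0.32 with the Y-linked level as covariate) and −0.34 at the other ages. For the 4 genes called at 12 months, the differences from the other ages were 0.040 for Comp, −0.017 for Mri1, 0.21 for Zfp868 and 0.17 for Zfp963, with adjusted p-values of 0.956, 0.959, 0.369 and 0.596. The mean of the other ages includes the 2 SCA6 libraries of 3 months with low Comp, Zfp868 and Zfp963.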

How the data were processed

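Whole-number counts per gene were deposited, unnormalised. To obtain them the authors trimmed paired 150 bp reads (Trimmomatic), aligned them to mm10, which is GRCm38, with STAR and assigned them to genes with HTSeq, per the labels and the study's methods. The sources used here state no tool version, strand setting or annotation release, so reads of overlapping and antisense genes cannot be told apart. The authors state that they dropped outliers after hierarchical clustering and principal component analysis, and the paper's text does not name them. Here all 10 libraries entered the fits, so the set may differ from the study's. Replicates were separate libraries of the labels, so p-values measure the spread between these libraries.

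After TMM scaling, genotypes were compared by the quasi-likelihood test (edgeR 4.0.16, limma 3.58.1 and R 4.3.3), with genotype alone as term, Benjamini-Hochberg adjustment over all genes tested and the CPM filter stated above. DESeq2 1.42.0, voom, other scalings and filters, blocks, Y-linked expression as a covariate and each library left out were alternatives. The genotype effect at 3, 6 and 19 months was fitted with age as a factor. ID number was tested over 4 levels with genotype in the fit, and number 3 against the rest. These ID number tests and the list medians within ID numbers were chosen after seeing the data. Scores averaged the members' log2 CPM (prior count of 2) after centring each gene on its mean over the 10 libraries.

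The comparison and all gene lists were chosen with earlier results of these data known, and the study's own chaperones came from its paper. Genes named were those called by either tool, those the study names for its bulk data, up to 4 members a list by p, the 10 highest and 10 lowest non-overlapping genes with an unadjusted p under 0.01, those under that p within 30 Mb of Cacna1a, and 5 members of a list in a library that stood apart. Not all genes that met the rule are described. Gene positions came from GENCODE for 19609 of 21967 symbols (89.3%).

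In simulated counts of 13202 genes, 68 of 100 changes of 0.4 (log2) and 99 of 100 of 1 were recovered between genotypes at 12 months, and 5 unchanged genes were called. Those counts held many more changed genes than were called in the real libraries, which eases the adjusted threshold. They also held no pattern of ID number or sex, so recovery in the real libraries may be lower. Same-numbered replicates correlated at −0.535 to 0.0416 in their deviations from group means, 0 of 5 pairs above 0.1, so numbers were not treated as pairs. The smallest chi-square per degree of freedom over 45 pairs of libraries was 7.58, above sampling noise for each pair.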

Additional observations from a re-analysis of the deposited data

Results flagged for a closer look

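Dixon's test compares the gap between the extreme library and its nearest neighbour with the whole range of the 5 libraries of a genotype. Over 60 groups of list scores it marked 6, and over 150 groups of the genes described it marked 29. Chance alone marks about 1 group in 20, but some of these genes were chosen because a library stood apart in their list and genes of a list move together, so the counts cannot be read against that share.

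SCA6 replicate 2 stood above the other SCA6 libraries in the interferon score (gap over range 0.883) and the microglia score (0.852). Single genes in that library were Oasl2 (0.955), Irf7 (0.942), Ifit1 (0.924), Isg15 (0.897), B2m (0.828) and Gbp3 (0.72), each highest there. Zfp963 was also highest in that library (0.739), over a narrow SCA6 range of 4.73 to 5.08 CPM.

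SCA6 replicate 5, the single SCA6 library of ID number 3, stood above the other SCA6 libraries in the score of the study's ER chaperones (0.795), the broader ER chaperone list (0.802) and cytosolic chaperones (0.781), and below them in that of myelin and cholesterol synthesis (0.717). Its chaperone and UPR genes were Xbp1 (0.922), Hsp90b1 (0.887), Manf (0.836), Creld2 (0.829), Hspa5 (0.813), Pdia6 (0.808), Dnajc3 (0.799), Hsph1 (0.796) and Calr (0.749), all highest there. Nrn1 (0.923), Cdkn1a (0.829) and Slc2a13 (0.802) were highest and Insig1 (0.835), Kdm6a (0.83) and Rbm3 (0.795) lowest in the same library.

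In WT, Kdm6a was highest in replicate 1 (0.718), the WT library without Y-linked transcripts, and Hapln4 was also highest there (0.747). WT replicate 3 was highest for Camkv (0.842) and Whrn (0.809), and WT replicate 5 for Adamts18 (0.768). Among SCA6 libraries, Pcp2 was lowest in replicate 4 (0.824) and Rfxank lowest in replicate 3 (0.781).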

How the results depend on the processing

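The count of 4 genes at 12 months became 10 with DESeq2, 1 (Comp) with sample number as a replicate block, 2 when ID number was the block and 1 when the Y-linked level was a covariate. Other scalings, filters, voom, no minimum fold and a fit of all 40 libraries gave 3 to 5, and leaving out 1 library gave 3 or 4. Over the other ages, 9 genes became 16 with DESeq2 and 15 without the 2 doubted SCA6 libraries of 3 months, and for 12 months minus the other ages 0 became 4 with DESeq2. The cause of these shifts was not tested. Comp was called under 22 of 22 settings, Zfp868 under 20 of 22, Mri1 under 19 of 22 and Zfp963 under 10 of 21. Kdm6a turned to −0.0476 with Y-linked expression as a covariate. Oasl2 turned to −0.209 with ID number as a block and to −0.138 without SCA6 replicate 2 (−0.138 to 1.86 over libraries left out). The block also leaves that library out of the genotype estimate. The sample number paired no libraries. With library size alone, 39 non-overlapping genes were higher and 41 lower, and with DESeq2 size factors 39 and 45, against 51 and 41. Scaling moved no median of all genes by 0.1. With 5 libraries a group, changes near 0.4 were missed in part in simulated counts, so a gene that was not called may still differ.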

Other observations

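WT replicate 4 also held transcripts of its own. In that library 16 genes were at 2-fold or more above each of the other 9, and none of them was on the interferon list. Glp2r, the receptor of an intestinal peptide hormone, was at 26.4 CPM there and 1.09 to 2.18 CPM elsewhere. Prokr2, a prokineticin receptor, was at 9.74 CPM against 1.1 to 2.76 CPM, Sycp3, a protein of meiotic chromosomes, at 12.8 CPM against 1.28 to 2.33 CPM, and Oprm1, the mu opioid receptor, at 13.1 CPM against 2.79 to 5.77 CPM. Glp2r, Abhd15, Cntd1 and Kcnh6 of these 16 lie on chromosome 11. These genes were chosen after their values were seen.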
